A study of Mus musculus with 2 samples.

Results

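Interleukin-6 and its relatives form a family of signalling proteins that share the receptor subunit gp130. It was followed here through 10 genes, chosen by symbol from the 32285 genes of the deposited tables. They were the ligand genes Il6, Il11, Lif and Osm, the shared receptor gene Il6st, which encodes gp130, the partner receptor genes Il6ra, Il11ra1, Lifr and Osmr, and the feedback inhibitor gene Socs3. All 10 had transcripts in both libraries.

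The study dissociated corneas, with the limbus that rings them, from 1 wild-type mouse injured with sodium hydroxide (NaOH) and from 1 uninjured wild-type mouse, and sequenced single cells. Lens, retina, iris and trabecular meshwork had been taken off, and most of the conjunctiva had been cut away. The labels name no other allele or agent for either mouse, and their strain, sex and age, the dose of NaOH and the time since injury were not given in the sources used here. With 1 library per group there is no replicate, so no difference below was tested and all intervals are 95% intervals that cover counting error only.

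Levels are given in CPM, the unique molecular identifiers (UMIs, counted transcripts) of a gene per 1000000 UMIs of the same class of cells. After filtering there were 8368 cells with 96887211 UMIs in the injured library and 6743 cells with 77213099 UMIs in the uninjured one, at medians of 10606 and 10152 UMIs per cell. The libraries shared 15 cell barcodes. Classes were rebuilt by clustering without the 10 genes and named by fixed markers. Injured and uninjured cells numbered 5789 and 5377 for epithelial-like cells, 804 and 459 for stromal-like cells, 85 and 58 for mural-like cells (those that wrap blood vessels), 97 and 54 for Schwann-like cells, and 211 and 43 for vascular endothelial-like cells. Macrophage or monocyte-like cells numbered 344 and 15 and neutrophil-like cells 1018 and 2. A shallow uninjured cluster of 732 cells with epithelial markers, holding only 4 injured cells, was left unnamed. The epithelial-like cells of the libraries lay mostly in different clusters: Krt12, the keratin of differentiated corneal epithelium, lay between 10.1 and 57.4 CPM in the 5 injured clusters of at least 50 cells, against 5590 to 31431 CPM in the 8 uninjured ones. The stromal-like class was also split: 777 of the injured cells but 19 of the uninjured cells lay in a cluster led by Mmp3 and Saa3, and 2 injured and 419 uninjured cells lay in one led by Kera and Angptl7. The part of these cluster differences in the results below was not tested. Values within shared clusters are given for some genes, but in shared epithelial clusters 2 and 8 Krt12 still differed widely between the libraries.

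Each ligand of the family first binds its own receptor subunit, or gp130 itself, and the complex then activates JAK kinases and the transcription factor STAT3. Il6ra and Il11ra1 serve interleukin-6 and interleukin-11, whereas LIF and oncostatin M signal through pairs of gp130 with the proteins of Lifr and Osmr. Socs3 is a STAT3 target whose protein binds gp130 and shuts the signal down; in the cornea the family is known for its part in inflammation and wound healing.

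Lif, Osm and Socs3 lie on chromosome 11, Lifr and Osmr on chromosome 15, and the other 5 genes on a chromosome each. Osm and Lif are neighbours on the same strand, with 16530 bases between them (GRCm38, GENCODE M21). Promoter windows of at most 250 bases before the RefSeq start (RefSeq, GRCm38.p6) are printed for the ligand genes Il6, Lif and Il11 and for the inhibitor gene Socs3, since the results on where ligands and inhibitor were transcribed turn on these 4 genes. Exon bases were left out, which trimmed the Lif and Socs3 windows to 239 and 165 bases. The Il6 window (chr5:30012864-30013113, plus strand) overlaps no annotated gene, whereas those of Lif (chr11:4257318-4257556, plus strand) and Socs3 (chr11:117969452-117969616, minus strand) lie inside the annotated spans of their own genes. The Il11 window (chr7:4778142-4778391, minus strand) belongs to the second of its start sites and is intronic to Il11. Capitals mark matches, on either strand, to the AP-1 motif TGANTCA, the C/EBP motif TTNNGNAA, the STAT motif TTCNNNGAA and the NF-kappaB consensus.
Il6: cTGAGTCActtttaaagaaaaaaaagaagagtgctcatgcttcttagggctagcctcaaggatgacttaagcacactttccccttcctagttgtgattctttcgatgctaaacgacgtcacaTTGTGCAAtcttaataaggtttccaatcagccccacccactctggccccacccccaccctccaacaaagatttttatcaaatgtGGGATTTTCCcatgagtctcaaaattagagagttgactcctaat
Lif: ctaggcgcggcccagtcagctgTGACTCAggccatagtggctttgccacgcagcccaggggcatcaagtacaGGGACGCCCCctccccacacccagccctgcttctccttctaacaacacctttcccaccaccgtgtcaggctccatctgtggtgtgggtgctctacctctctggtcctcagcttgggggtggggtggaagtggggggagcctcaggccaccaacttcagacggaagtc
Il11: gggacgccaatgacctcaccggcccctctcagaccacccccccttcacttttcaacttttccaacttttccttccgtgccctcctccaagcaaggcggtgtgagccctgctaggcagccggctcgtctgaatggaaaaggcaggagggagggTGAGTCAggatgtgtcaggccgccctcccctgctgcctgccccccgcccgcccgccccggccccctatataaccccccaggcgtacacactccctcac
Socs3: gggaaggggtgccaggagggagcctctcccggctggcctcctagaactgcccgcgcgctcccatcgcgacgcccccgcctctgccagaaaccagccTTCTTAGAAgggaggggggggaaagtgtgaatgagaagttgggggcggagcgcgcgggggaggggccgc

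In the Il6 window the capitals are, in order, an AP-1 match, a C/EBP match and an NF-kappaB match. The Lif window holds an AP-1 match and an NF-kappaB match, the Il11 window an AP-1 match and the Socs3 window a STAT match, and none of these overlaps another. Windows that are not printed were scanned over 250 bases too. Those of Il6st, Il11ra1, Lifr, Osmr and the first Il11 start held no match to these motifs. The Il6ra window held 2 C/EBP matches, and Osm had no window. Of 32851 mouse promoter windows of 250 bases, 6.75% hold the AP-1 motif, 36.9% the C/EBP motif, 7.02% the STAT motif and 7.25% the NF-kappaB consensus. A match describes these letters and is no evidence of a bound site.

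The family moved most in the stromal-like cells, upward, while the same genes were mostly lower in the vascular endothelial-like cells. A gene was called higher or lower where its level differed at least 2-fold and the interval of the ratio excluded 1, among genes with at least 20 UMIs over both libraries. In stromal-like cells 7 of the 9 measured genes were higher in the injured library, where 9.88% of all genes were, and 0 were lower, where 9.34% of all genes were. Their median log2 ratio was 2.13, against 0.01 over all 11975 genes tested there. In vascular endothelial-like cells 0 of 6 were higher, with 6.61% of all genes higher, and 5 were lower, with 6.57% of all genes lower. With every cell thinned to 1000 UMIs, the intervals of Lifr and Osmr in this class included 1. The uninjured side of that class rests on 43 cells, and markers of other classes moved with it: summed mural markers stood at 0.578% of the mural-like level in injured and 8.10% in uninjured cells, and epithelial markers at 4.86% and 19.95% of the epithelial-like level. Their part in the 5 lower genes was not tested, except for the values without mural markers given below. Nearly all injured stromal-like cells sit in cluster 15, led by Mmp3 and Saa3, and the stromal values below are mostly those of that cluster against cluster 1, led by Kera and Angptl7. The small stromal cluster 13, led by Igfbp6 and Sfrp2, was the one that both libraries filled alike, with 25 injured and 21 uninjured cells. There Il6st was at 208 CPM (132 to 311) in injured and 234 CPM (136 to 375) in uninjured cells, with 2 Osmr UMIs in each library. Cluster 15 held 777 injured and 19 uninjured cells, with Il6st at 758 CPM (741 to 775) in injured and 247 CPM (119 to 455) in uninjured cells, and Osmr at 132 CPM (1330 UMIs) and 24.7 CPM (1 UMI). The intervals for Il6st thus overlapped in cluster 13 and did not in cluster 15. The other genes called higher in stroma had too few uninjured UMIs in cluster 15 to show a difference there. With uninjured counts set to 3, the ratios were 1.78 (0.959 to 211) for Osmr, 1.03 (0.554 to 122) for Lif and 0.516 (0.276 to 61.3) for Lifr. Il6, Il11 and Il6ra had 0 uninjured UMIs there, with intervals that include 1. Cluster 13 held 1 and 0 UMIs of Lif and 0 and 2 of Il11 in injured and uninjured cells.

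In epithelial-like cells 2 of 10 were higher (13.6% of all genes) and 2 were lower (11.4% of all genes), which is close to the background. Mural-like cells had 2 of 7 higher, with 9.16% of all genes higher, and 2 lower, with 8.52% of all genes lower. In Schwann-like cells 0 of 2 were higher and 1 was lower, Socs3, where 10.3% and 5.58% of all genes were. In macrophage or monocyte-like cells 0 of 6 were higher and 1 was lower, again Socs3, where 2.75% and 3.52% of all genes were, with only 15 uninjured cells behind the value.

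**Figure D1:**
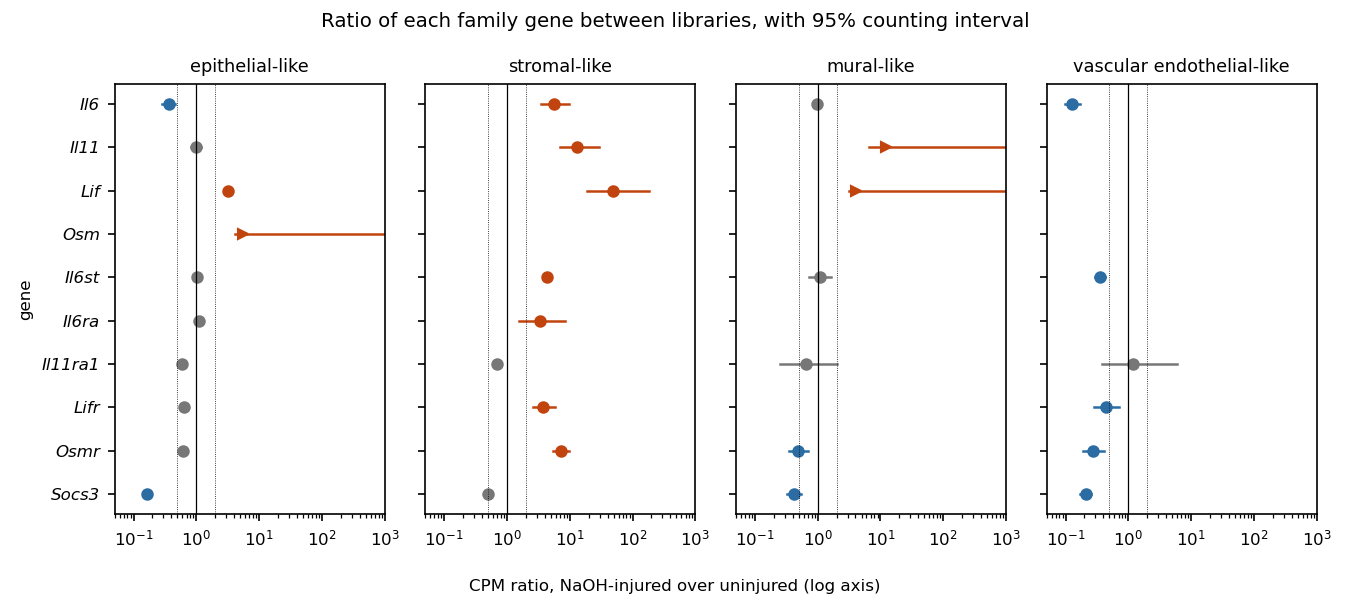
Ratio of CPM, NaOH-injured over uninjured, on a log axis for each measured gene in 4 cell classes, with 95% counting intervals; dotted lines mark 2-fold, colours mark called genes and triangles mark ratios against a count set to 3. In the stromal-like panel Il6, Il11, Lif, Il6st, Il6ra, Lifr and Osmr lie beyond 2-fold higher, while in the vascular endothelial-like panel Il6, Il6st, Lifr, Osmr and Socs3 lie beyond 2-fold lower.

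Il6, the ligand that gives the family its name, was a transcript of mural-like cells in both mice. It stood at 1598 CPM (1501 to 1700) in injured and 1638 CPM (1422 to 1877) in uninjured mural-like cells, a ratio of 0.976 with an interval of 0.839 to 1.14. With every cell thinned to 1000 UMIs, 61.4% of injured and 56.4% of uninjured mural-like cells held an Il6 UMI, against 83.5% and 74.1% before thinning. The class with the most Il6 per UMI thus had about the same level in both libraries. These 85 cells held 61.6% of all Il6 UMIs of the injured library, and the 58 uninjured ones held 35.5%.

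**Figure D2:**
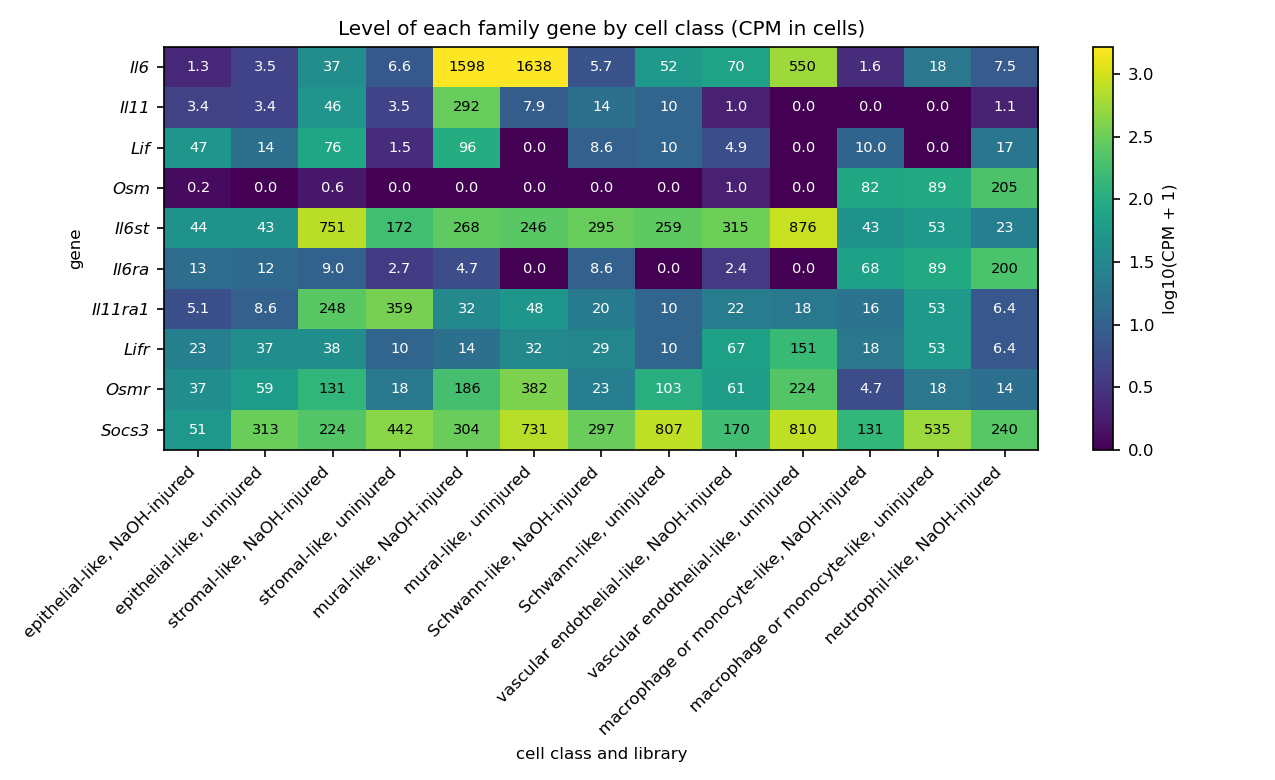
Grid of the level of each gene (rows; CPM printed in each square, colour by log10 of CPM + 1) in each cell class and library (columns, NaOH-injured left of uninjured). Il6 peaks in mural-like cells at 1598 CPM in the injured and 1638 CPM in the uninjured library, Osm in neutrophil-like cells of the injured library at 205 CPM, and Il11ra1 in stromal-like cells of both libraries.

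Second in the order of Il6 levels came vascular endothelial-like cells, the lining of blood vessels, with 69.9 CPM (143 UMIs) in the injured and 550.0 CPM (91 UMIs) in the uninjured library. The ratio was 0.127 (0.0971 to 0.167), 7.86-fold lower in the injured library, and 0.303 (0.156 to 0.608) after thinning. Mural markers moved with this value. Beside the summed mural markers given above, Rgs5, a defining mural gene, stood at 2.93 CPM in injured and 423 CPM in uninjured vascular endothelial-like cells. In a split chosen after the values were seen, cells with no UMI of any mural marker held 87.3 CPM of Il6 (70.5 to 107, 135 cells) in the injured and 170 CPM (87.7 to 297, 24 cells) in the uninjured library, and these intervals overlap. Of the 91 uninjured UMIs, 79 lay in the 19 cells that also had mural marker UMIs. The uninjured value rests on few cells, as 71.4% of the 91 UMIs lay in 5 of the 43 cells and a single cell held 38.

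Stromal-like cells, the matrix-making cells of the cornea, had 36.9 CPM of Il6 (375 UMIs) in the injured and 6.58 CPM (17 UMIs) in the uninjured library, a ratio of 5.61 (3.45 to 9.73). The thinned ratio was 2.71, with an interval of 1.012 to 9.08, and 2.62% against 1.11% of thinned cells held a UMI, with overlapping intervals. Before thinning these shares were 19.9% and 3.05%, at medians of 12006 and 5715 UMIs. For comparison, 1.69% of injured epithelial-like cells held an Il6 UMI at a median of 11665 UMIs. The summed mural markers reached 2.76% of the mural-like level in injured and 1.35% in uninjured stromal-like cells, and that share of the mural Il6 level would be 44.1 CPM and 22.1 CPM. Most of that marker sum came from Acta2, Pdgfrb and Tagln, of which Pdgfrb alone stood at 189 CPM in injured stromal-like cells. Injured stromal-like and mural-like cells had 4.03 CPM and 5411 CPM of Rgs5, 2.36 CPM and 334 CPM of Notch3, and 2.95 CPM and 172 CPM of Kcnj8. In stromal-like cells with no UMI of any mural marker, Il6 was at 43.0 CPM (29.4 to 60.7, 92 cells) in the injured and 6.16 CPM (2.26 to 13.4, 195 cells) in the uninjured library. These cells were shallower, with a median of 7606.5 UMIs in the injured library against 12402.5 UMIs for the cells with such UMIs, and the part of mural RNA in stromal Il6 was not tested.

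Below these classes Il6 was sparse. Epithelial-like cells held 1.27 CPM (103 UMIs) in the injured and 3.47 CPM (237 UMIs) in the uninjured library, a ratio of 0.367 (0.288 to 0.464). Summed mural markers in these cells stood at 0.673% and 0.303% of the mural-like level. That share of mural Il6 would be 10.7 CPM and 4.97 CPM, above both observed levels. The part of mural RNA in the epithelial Il6 level and its ratio was not tested. Epithelial-like cells held 6.25% of the injured and 40.9% of the uninjured Il6 UMIs. Neutrophil-like cells of the injured library had 7.45 CPM from 7 UMIs, Schwann-like cells 2 and 5 UMIs in the injured and uninjured library, and macrophage or monocyte-like cells 3 and 1. In the injured library mural-like, vascular endothelial-like and stromal-like cells were set apart from their neighbours in the order by intervals that do not overlap, and neutrophil-like, Schwann-like and macrophage or monocyte-like cells were not. In the uninjured library mural-like and then vascular endothelial-like cells were set apart in this way, and Schwann-like, macrophage or monocyte-like and stromal-like cells were not all separated.

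**Figure D3:**
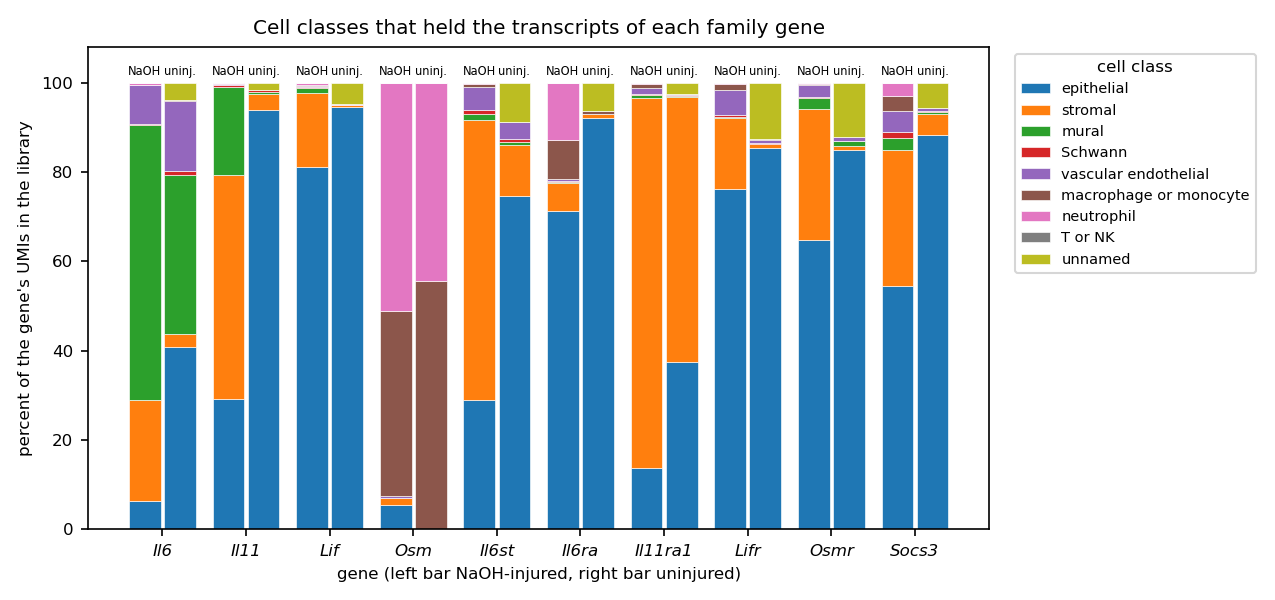
Percent of all UMIs of each gene that lie in each cell class, as stacked bars with the NaOH-injured bar left of the uninjured bar for every gene. Stromal-like cells hold 50.2% of injured and 3.66% of uninjured Il11 UMIs, and mural-like cells 61.6% of injured and 35.5% of uninjured Il6 UMIs.

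Il11, a ligand best known from fibroblasts, was called higher in injured stromal-like and mural-like cells, and was sparse in all classes of the uninjured mouse. Mural-like cells had 292 CPM (185 UMIs) in the injured library and 1 UMI (7.95 CPM) in the uninjured one, a ratio of counts of 36.7 with an interval of 6.502 to 1456, or 12.2 with the uninjured count set to 3. Of these 185 UMIs, 87.6% lay in 9 of the 85 injured mural-like cells, and a single cell held 55. The counting interval does not take this concentration into account. Stromal-like cells had 46.1 CPM (469 UMIs) against 3.48 CPM (9 UMIs), a ratio of 13.2 (6.92 to 29.1) that became 6.77 (3.42 to 824) after thinning, with 36 UMIs and 1 UMI. Thinned, 9.64% of injured mural-like cells held an Il11 UMI against 0 of 55 uninjured ones, and 3.12% against 0.222% of stromal-like cells did; unthinned the stromal shares were 15.0% and 1.96%. Stromal markers summed to 9.74% of the stromal-like level in injured and 2.27% in uninjured mural-like cells, and that share of the stromal Il11 level would be 4.49 CPM of the injured 292 CPM. Epithelial-like cells held 3.37 CPM (272 UMIs) in the injured and 3.39 CPM (231 UMIs) in the uninjured library, with a ratio of 0.994 (0.831 to 1.19). The share of mural Il11 that mural markers in these cells would give is 1.96 CPM in the injured and 0.0241 CPM in the uninjured library. Its part in the epithelial level and ratio was not tested. The uninjured epithelial level was no higher than the stromal one, and epithelial-like cells, by far the most numerous, gave 29.1% of injured and 93.9% of uninjured Il11 UMIs. Macrophage or monocyte-like cells had 0 UMIs in both libraries.

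Lif, which encodes leukaemia inhibitory factor, was called higher in the injured library in the 3 classes where it could be measured, epithelial-like, stromal-like and mural-like cells. It was the only one of the 4 ligand genes called higher in epithelial-like cells from UMIs in both libraries. Epithelial-like cells held 46.6 CPM (3768 UMIs) in the injured and 14.4 CPM (982 UMIs) in the uninjured library, a ratio of 3.24 (3.02 to 3.48). Thinned, the ratio was 2.69 (2.14 to 3.41), and 4.80% against 1.62% of cells held a UMI, with 30.5% and 9.08% before thinning. These cells supplied 81.0% of injured and 94.6% of uninjured Lif UMIs. Stromal-like cells had 75.8 CPM (771 UMIs) against 1.55 CPM (4 UMIs), a ratio of 48.99 (19.1 to 180) that became 9.40 (4.83 to 1135) after thinning, with 50 UMIs and 1 UMI. Mural-like cells had 96.1 CPM (61 UMIs) in the injured and 0 UMIs in the uninjured library. The ratio was 4.03 with the uninjured count set to 3, and its interval starts at 3.18. Of the 61 UMIs, 77.0% lay in 9 of the 85 injured mural-like cells, and a single cell held 16. Thinning left 3 mural UMIs and 0, too few for a call. Stromal-like and mural-like cells of the injured library had overlapping Lif intervals (70.6 to 81.4 and 73.5 to 123 CPM) at the top of the order, with epithelial-like cells next. Epithelial markers in injured stromal-like cells summed to 4.91% of the epithelial-like level, and that share of epithelial Lif would be 2.29 CPM of the 75.8 CPM.

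The higher level of Lif in the injured library was also seen within the epithelial clusters that both libraries shared, taking those with at least 30 cells from each. Cluster 2 had 15.4 CPM in injured and 2.85 CPM in uninjured cells, a ratio of 5.42 (1.81 to 26.6). Cluster 8, rich in the limbal gene Gpha2, had 54.7 CPM and 22.2 CPM, a ratio of 2.46 (1.43 to 4.07). Cluster 12, led by genes of dividing cells, had 62.3 CPM and 21.1 CPM, a ratio of 2.96 (1.78 to 5.32). Sharing a cluster did not make the cells alike. Krt12 was at 57.4 CPM in injured and 6895 CPM in uninjured cells of cluster 2, and at 0 and 5590 CPM in those of cluster 8. The part of such differences in the values within shared clusters was not tested. Across clusters of at least 50 cells, Lif ranged from 14.0 to 65.0 CPM in the 5 injured and from 1.23 to 40.2 CPM in the 8 uninjured ones, so the libraries overlap at cluster level. The uninjured maximum belonged to cluster 10, which is led by Mmp13 and Mmp10 and holds 767 cells; it also had the highest uninjured cluster values of Il6 (7.38 CPM), Il11 (8.83 CPM) and Osmr (95.1 CPM).

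In the injured stroma the tenth of cells richest in each transcript held 78.9% of Il6 UMIs (375 in all), 91.5% of Il11 UMIs (469) and 71.6% of Lif UMIs (771). The same share was 30.3% for Il6st (7638), 32.3% for Osmr (1332) and 52.4% for Lifr (389), but 98.9% for the sparse Il6ra (92). This share rises as a gene gets sparser, so it can be compared between genes of like counts only, such as Il6 and Lifr. The 233 cells with a Lif UMI had 82.0 CPM of Il11 and 62.4 CPM of Il6, whereas the 571 cells without one had 27.2 CPM and 23.4 CPM. Osmr was at 136 CPM and 128 CPM, and Socs3 at 227 CPM and 222 CPM, in cells with and without a Lif UMI. In this split the ligand transcripts differed more than the Osmr and Socs3 transcripts did, and cells with a Lif UMI were also deeper, at medians of 13745 and 10971 UMIs. Split by Il6 instead, Socs3 was at 273 CPM (252 to 296) in cells with and 210 CPM (200 to 220) in cells without an Il6 UMI. Osmr was at 150 CPM (134.3 to 167) and 126 CPM (118 to 133.7) in that split. Split by Il11, Socs3 was at 222 CPM and 224 CPM.

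Osm, which encodes oncostatin M, was a transcript of neutrophil-like and macrophage or monocyte-like cells, classes that were rare in the uninjured mouse. Neutrophil-like cells of the injured library held 205 CPM (193 UMIs, 177 to 237), and macrophage or monocyte-like cells 81.7 CPM (156 UMIs, 69.4 to 95.6), with intervals that do not overlap. Thinned to 1000 UMIs, 13.4% of the 254 deep enough neutrophil-like cells and 7.29% of macrophage or monocyte-like cells held an Osm UMI, with 13.9% and 27.6% before thinning at medians of 851.5 and 4628.5 UMIs. The injured library had 377 Osm UMIs in all its cells and the uninjured library 9, of which 5 lay in its 15 macrophage or monocyte-like cells and 4 in its 2 neutrophil-like cells. Within macrophage or monocyte-like cells the levels were 81.7 CPM and 89.2 CPM, a ratio of 0.917 (0.385 to 2.86), so no difference in level was detectable at this depth while the number of such cells differed widely. Epithelial-like cells had 20 UMIs (0.247 CPM) in the injured and 0 in the uninjured library, and thinning left 2 and 0 UMIs. The ratio was 5.63 with the uninjured count set to 3, and its interval starts at 4.17. Neutrophil markers summed to 0.187% of their own level in injured epithelial-like cells, and that share of neutrophil Osm would be 0.384 CPM, above the observed level. Mural-like and Schwann-like cells had none.

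**Figure D4:**
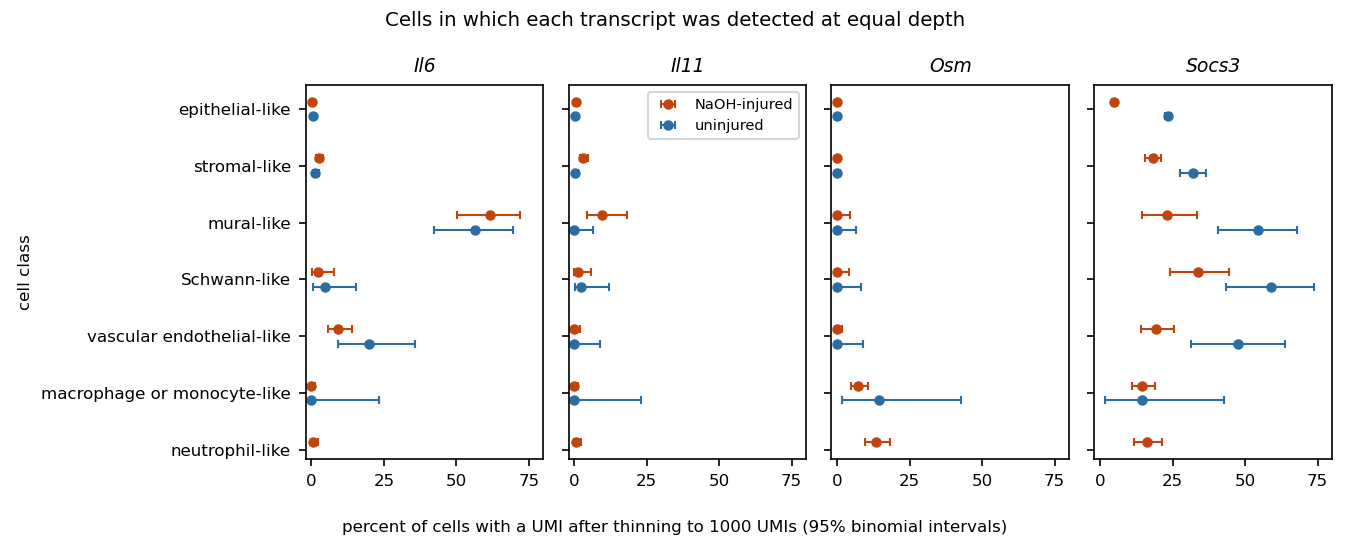
Percent of cells with at least 1 UMI of Il6, Il11, Osm or Socs3 after every cell was thinned to 1000 UMIs, by class, NaOH-injured above uninjured, with 95% binomial intervals. Mural-like cells hold Il6 in 61.4% and 56.4% of cells, and epithelial-like cells hold Socs3 in 4.77% and 23.4%.

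Il6st, the gp130 gene on which all 4 ligands depend, was 4.36-fold higher (3.96 to 4.81) in injured stromal-like cells, at 751 CPM (7638 UMIs) against 172 CPM (445 UMIs). Thinned, 46.4% of injured and 15.3% of uninjured stromal-like cells held an Il6st UMI, with 93.4% and 56.2% before thinning. In the injured library this was the highest level of any class, and 62.6% of all Il6st UMIs lay in the stroma, against 11.4% in the uninjured library. Vascular endothelial-like cells held 315 CPM (644 UMIs) and 876 CPM (145 UMIs), 2.78-fold lower in the injured library with a ratio of 0.359 (0.300 to 0.433), and were the highest class of the uninjured library. Among cells of that class without mural marker UMIs the levels were 364 CPM and 693 CPM. Mural-like cells (268 and 246 CPM) and Schwann-like cells (295 and 259 CPM) differed little, with ratios of 1.09 and 1.14. Epithelial-like cells had 43.8 CPM and 42.6 CPM, with a ratio of 1.03 (0.978 to 1.08). Neutrophil-like cells, at 23.4 CPM, had the lowest injured level among the 7 classes shown in the grid of levels.

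Il6ra, the receptor subunit that binds interleukin-6, was highest in neutrophil-like cells, at 200.1 CPM (188 UMIs, 173 to 231) in the injured library. Macrophage or monocyte-like cells followed with 67.6 CPM (129 UMIs) in the injured and 89.2 CPM (5 UMIs) in the uninjured library. Epithelial-like cells held 12.9 CPM and 11.6 CPM, a ratio of 1.11, and supplied 71.3% of injured and 92.2% of uninjured Il6ra UMIs. Stromal-like cells had 9.05 CPM (92 UMIs) against 2.71 CPM (7 UMIs), a ratio of 3.34 (1.56 to 8.54); thinning left 7 and 2 UMIs, with a ratio of 1.32 (0.376 to 19.5). The classes with the most Il6 and the most Il6ra were thus different ones: injured mural-like cells, at the top for Il6, had 3 Il6ra UMIs and uninjured ones 0.

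Il11ra1, the receptor subunit for interleukin-11, was a stromal transcript in both mice and the one receptor gene with a lower level in the injured stroma. Stromal-like cells held 248 CPM (2521 UMIs) in the injured and 359 CPM (928 UMIs) in the uninjured library, a ratio of 0.691 (0.640 to 0.745) that falls short of 2-fold. They held 82.8% and 59.3% of all Il11ra1 UMIs. Every other class in the grid of levels had at most 53.5 CPM. Epithelial-like cells had 5.14 CPM and 8.58 CPM, a ratio of 0.599. The near-identical copies listed beside it, the Il11ra2 entries and Gm13305, had 0 and 1 UMIs in the injured library and 0 in the uninjured one. Reads that match several of these copies could be split between them, so the Il11ra1 values carry that uncertainty.

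Lifr, the partner of gp130 for LIF, was higher in injured stromal-like cells. In injured vascular endothelial-like cells it was called lower before thinning only. Stromal-like cells had 38.3 CPM (389 UMIs) against 10.1 CPM (26 UMIs), a ratio of 3.80 (2.56 to 5.90), and 2.38 (1.13 to 5.60) after thinning. Vascular endothelial-like cells had 66.5 CPM (136 UMIs) against 151 CPM (25 UMIs), a ratio of 0.440 (0.286 to 0.704). Thinning left 24 and 5 UMIs, with a ratio of 0.932 (0.349 to 3.13), an interval that includes 1. This class was the highest in both libraries, although its uninjured interval (97.8 to 223 CPM) overlaps that of the 15 macrophage or monocyte-like cells. Epithelial-like cells had 23.1 CPM against 36.5 CPM, a ratio of 0.632 that was not called.

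Osmr, the partner of gp130 for oncostatin M, was higher in injured stromal-like cells. In mural-like and vascular endothelial-like cells it was called lower before thinning only. Stromal-like cells held 131 CPM (1332 UMIs) in the injured and 18.2 CPM (47 UMIs) in the uninjured library, a ratio of 7.20 (5.39 to 9.85). Mural-like cells had 186 CPM (118 UMIs) against 382 CPM (48 UMIs), 2.05-fold lower with a ratio of 0.487 (0.346 to 0.697), and this call was lost under thinning. Vascular endothelial-like cells had 60.6 CPM (124 UMIs) against 224 CPM (37 UMIs), a ratio of 0.271 (0.187 to 0.403), and 67.6 CPM against 170 CPM in cells without mural marker UMIs. Thinning left 26 and 11 UMIs in the vascular endothelial-like class, with a ratio of 0.459 (0.219 to 1.029), so this call was lost too. Epithelial-like cells had 36.6 CPM (2960 UMIs) against 58.7 CPM (4006 UMIs), a ratio of 0.624 (0.595 to 0.654). Within the shared epithelial clusters 2, 8 and 12 the Osmr ratios were 0.976, 0.888 and 1.03, and each interval included 1. Mural-like cells led the order in both libraries, followed by stromal-like cells in the injured and by vascular endothelial-like cells in the uninjured library, where the leading intervals overlap. Stromal-like cells gave 29.2% of injured and 0.995% of uninjured Osmr UMIs.

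Cells that held transcripts of gp130 and a partner together were counted in the stroma and set beside the product of the single shares. After thinning, Il6st and Il11ra1 were found together in 8.75% of injured and 3.77% of uninjured stromal-like cells, where the products are 9.62% and 4.88%. Il6st with Osmr was found in 5.62% and 0.222% (products 5.57% and 0.373%). Il6st with Lifr was found in 2.12% and 0.222% (products 1.97% and 0.305%), and Il6st with Il6ra in 0.5% and 0.222% (products 0.406% and 0.0678%). The paired shares in the injured stroma thus lie near what the single shares give. Il6st was found in 46.4% of injured and 15.3% of uninjured thinned stromal-like cells, and the partner shares differed as well. Osmr was found in 12% and 2.44%, Lifr in 4.25% and 1.996%, and Il6ra in 0.875% and 0.443%. The Il11ra1 share was lower in injured cells, at 20.75% against 31.9%. Unthinned paired shares with Il6st were 84.3% and 47.3% for Il11ra1, 68.7% and 5.66% for Osmr, 31.3% and 2.40% for Lifr, and 9.95% and 0.871% for Il6ra. In vascular endothelial-like cells the thinned share for Il6st with Osmr was 7.28% against 10.0%, and for Il6st with Lifr 5.34% against 12.5%. In epithelial-like cells Il6st with Osmr reached 0.122% against 0.467%.

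Socs3, the feedback inhibitor of gp130, had a lower level in the injured library in all 6 classes compared. Epithelial-like cells had 50.5 CPM (4082 UMIs) in the injured and 313 CPM (21365 UMIs) in the uninjured library, 6.20-fold lower with a ratio of 0.161 (0.156 to 0.167). Thinned, 4.77% and 23.4% of these cells held a Socs3 UMI, with 29.6% and 70.4% before thinning. Mural-like cells had 304 CPM against 731 CPM (ratio 0.416), Schwann-like cells 297 CPM against 807 CPM (ratio 0.369), and vascular endothelial-like cells 170 CPM against 810 CPM (ratio 0.210). Stromal-like cells had 224 CPM (2275 UMIs) against 442 CPM (1143 UMIs), a ratio of 0.506 (0.471 to 0.544) that just missed the 2-fold call. Within stromal cluster 15 the levels were 223 CPM and 173 CPM (7 UMIs), a ratio of 1.29 (0.625 to 3.21). Stromal cluster 13 had 253 CPM and 317 CPM, a ratio of 0.797 (0.443 to 1.45), and both intervals include 1. Macrophage or monocyte-like cells had 131 CPM against 535 CPM, a ratio of 0.246 that moved to 0.851 (0.278 to 4.24) after thinning. Uninjured vascular endothelial-like, Schwann-like and mural-like cells had overlapping intervals at the top of the order, as had injured mural-like, Schwann-like and neutrophil-like cells. Epithelial markers moved with these values: they stood at 5.52% of the epithelial-like level in injured and 12.6% in uninjured mural-like cells, 13.4% and 35.2% in Schwann-like cells, 4.86% and 19.95% in vascular endothelial-like cells and 6.31% and 16.2% in macrophage or monocyte-like cells. In uninjured Schwann-like cells that share of epithelial Socs3 would be 110.2 CPM of the 807 CPM, and in uninjured vascular endothelial-like cells 62.5 CPM of the 810 CPM. In stromal-like cells the marker levels were 4.91% and 5.65%. Stromal-like cells held 30.4% of injured and 4.72% of uninjured Socs3 UMIs.

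The lower level of Socs3 was seen in 2 of the 3 shared epithelial clusters. Cluster 2 held 99.99 CPM in injured and 441 CPM in uninjured cells, 4.41-fold lower, and cluster 12 held 51.1 CPM and 406 CPM, 7.94-fold lower. In the Gpha2-rich cluster 8 the levels were 430 CPM and 461 CPM, a ratio of 0.932 (0.785 to 1.10), from 46 injured and 324 uninjured cells. Gpha2 was at 2900 CPM in these injured cells, but other injured clusters were rich in it too. Cluster 18, with 2677 injured cells, had 3675 CPM of Gpha2, and cluster 12 had 1636 CPM. Neither had more than 99.99 CPM of Socs3. Fos, an immediate-early gene that tissue dissociation is known to induce, was at 3141 CPM and 3490 CPM in cluster 8. The 5 injured clusters with at least 50 cells had 480 to 952 CPM of Fos and 27.5 to 99.99 CPM of Socs3, against 491 to 3490 CPM and 88.6 to 461 CPM in the 8 uninjured ones. Both genes were thus low in these injured clusters and high in cluster 8. In clusters 2 and 12 both were lower in injured cells, with Fos at 653 and 952 CPM against 2666 and 3253 CPM. The genes did not go together in every uninjured cluster. Cluster 10 had 1998 CPM of Fos but 100.6 CPM of Socs3, whereas cluster 5 had 1680 CPM and 370 CPM. The part of dissociation in the Socs3 values was not tested.

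**Figure D5:**
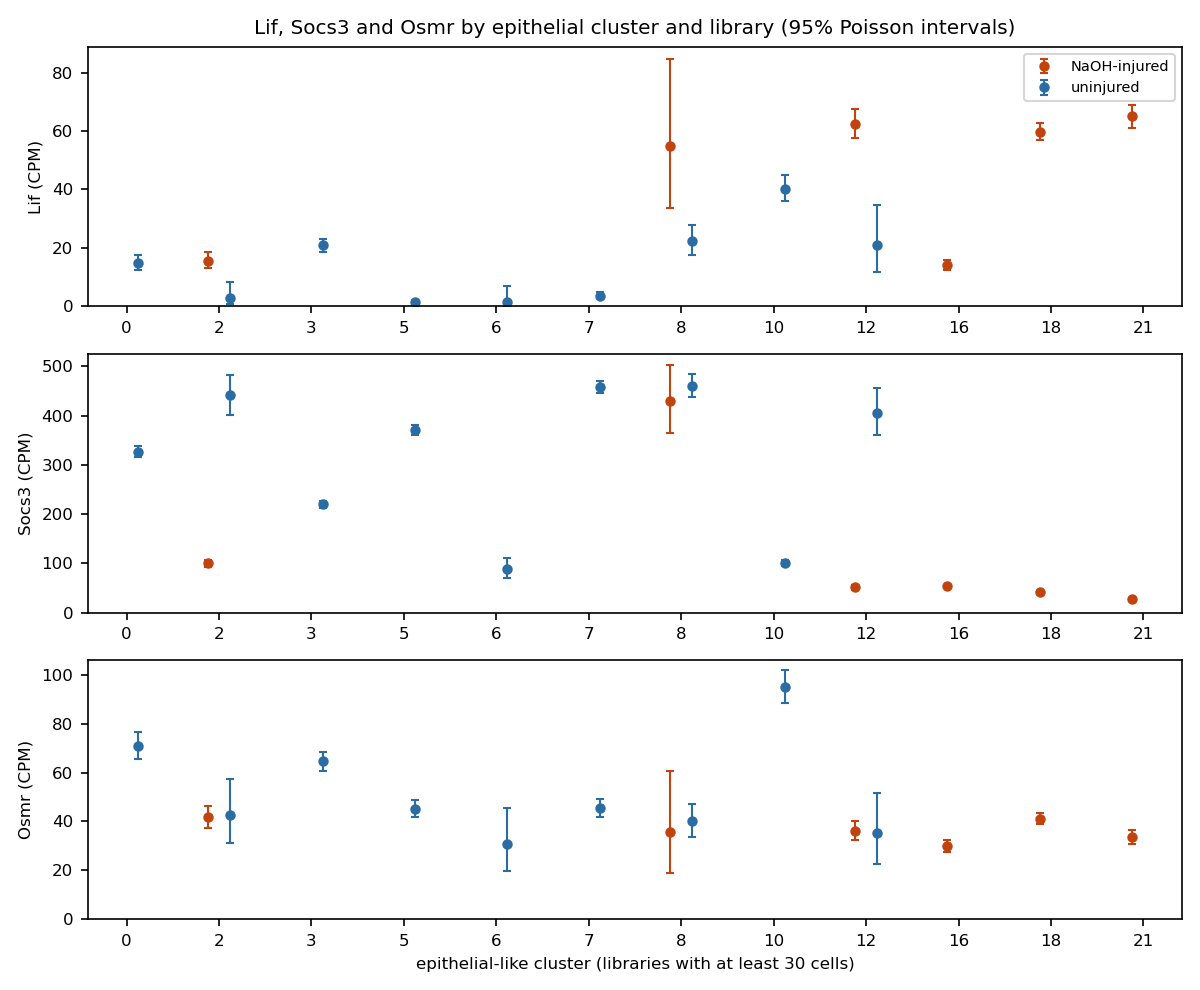
Levels of Lif, Socs3 and Osmr (CPM, 95% Poisson intervals) in each epithelial-like cluster, NaOH-injured left of uninjured, for libraries with at least 30 cells in the cluster. Lif is higher in injured cells of shared clusters 2, 8 and 12, and Socs3 lower in clusters 2 and 12 but close in cluster 8.

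The rest of the pathway was followed through 5 lists with 75 genes in all. None of the 11 signal transducer genes, which include the JAK kinases and STAT3, was called in epithelial-like or stromal-like cells. Their median log2 ratios were -0.03 and 0.26, beside 0.02 and 0.01 over all genes tested. Stat3 was at 111 CPM in injured and 113 CPM in uninjured epithelial-like cells, and at 175 CPM and 98.7 CPM in stromal-like cells. The acute-phase genes, secreted products of inflammation, had the highest median of the 5 lists in both classes. In stromal-like cells 11 of 12 measured were higher and 0 lower, beside 9.88% and 9.34% of all genes, with a median log2 ratio of 4.05. In epithelial-like cells 10 of 13 were higher and 2 lower, beside 13.6% and 11.4% of all genes, with a median of 3.26. In stromal-like cells Serpina3n had 2517 CPM in the injured and 53.8 CPM in the uninjured library, 46.8-fold higher, Lcn2 449.7 CPM against 2.71 CPM, and Lbp 87.1 CPM against 16.3 CPM. Saa3 had 1056 CPM against 1.16 CPM (3 UMIs), a ratio of 909 (311 to 4411).

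Genes known as targets of STAT3 or gp130 did not move as one. In stromal-like cells 6 of 22 were higher and 1 lower, beside 9.88% and 9.34% of all genes, with a median log2 ratio of 0.48. In epithelial-like cells 5 of 22 were higher and 3 lower, beside 13.6% and 11.4% of all genes, with a median of -0.10, so the lower count is near the background. In mural-like cells 2 of 17 were higher and 9 lower, beside 9.16% and 8.52% of all genes, with a median of -1.03, against 0.23 over all genes. Osmr is itself on this list. In stromal-like cells Timp1, a protease inhibitor, had 2129.7 CPM against 10.1 CPM, and Myc, a growth regulator, 174 CPM against 20.5 CPM, whereas Fos had 2155 CPM against 5168 CPM. In epithelial-like cells Timp1 had 54.7 CPM against 11.2 CPM, 4.88-fold higher, while Junb fell to 622 CPM in the injured library, against 1598 CPM in the uninjured one, and Ccnd1, a cell cycle gene, to 141 CPM against 312 CPM. The 9 genes lower in mural-like cells included the immediate-early genes Junb (2594 CPM against 5287 CPM) and Fos (1373 CPM against 3172 CPM) and the transcription factor gene Cebpb (1360.1 CPM against 3935 CPM).

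Among 14 genes that damp the signal or shed the receptor, 2 were higher and 2 lower in epithelial-like cells, and 1 was higher and 1 lower in stromal-like cells. These counts are near the background of 13.6% and 11.4% of all epithelial-like and 9.88% and 9.34% of all stromal-like genes. Cish, a relative of Socs3, had 32.9 CPM in injured and 77.2 CPM in uninjured epithelial-like cells, and Ptpn1, a phosphatase gene, had 121 CPM against 46.4 CPM in stromal-like cells.

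Each gene's profile over 11 class and library combinations was set beside those of 5711 genes. Il6 was most like Adamts4 (Pearson r of 0.952), Ddit4 (0.945) and Rasd1 (0.936), all highest in uninjured mural-like cells. Osmr was most like Uap1 (0.917) and shared Rasd1 (0.902) with Il6. Socs3 was most like Pttg1 (0.892) and the immediate-early gene Junb (0.865), and Il6st most like Zcchc14 (0.927) and Copg1 (0.926). Lif had no close match, with Btbd1 first at 0.769. For Osm, Myo1f, Havcr2 and F10 had an r between 0.999 and 1.00, and all were highest in neutrophil-like cells. These are descriptions over 11 combinations that share libraries.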

How the data were processed

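The deposited values are raw UMI counts per gene and cell barcode, 1 matrix per mouse. Per the file headers the authors made them with Cell Ranger 7.0.1, and per the submitters' processing notes on build GRCm38. A barcode was kept if it held 300 or more genes and 500 or more UMIs with no more than 20% of them mitochondrial, leaving 9003 injured and 7150 uninjured of 9399 and 7490 barcodes. Scrublet's own threshold marked 2 and 32 cells, so the 635 and 407 top-scoring cells were removed (0.8% assumed per 1000 barcodes). Cells were clustered with scanpy 1.11.5 (Leiden resolution 1, 30 components, without the 10 genes and the list genes), and clusters were named by marker scores set after a look at the clusters. Counts were summed per class. Intervals are exact Poisson for levels, Clopper-Pearson for shares and conditional binomial for ratios (scipy 1.17.1), at 95%; counts under 3 were set to 3 in ratios, except in ratios of counts, named as such. Thinning drew 1000 UMIs per cell. List genes were named where called at 50 CPM or more, up to 4 per direction and class. Scripts were checked on simulated data. The members and lists were chosen with earlier results of these data known. One list, of further family genes, is not reported here. Alternatives are given in the closing section. No p-value was computed.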

Additional observations from a re-analysis of the deposited data

Results flagged for a closer look

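4 genes of the family moved in opposite directions in different cell classes of the same 2 libraries, and each difference between classes was not tested because there is 1 library per group. The values are log2 ratios of CPM, NaOH-injured over uninjured. Il6 was at 2.49 in stromal-like cells, -1.45 in epithelial-like cells and -2.98 in vascular endothelial-like cells. Il6st was at 2.13 in stromal-like and -1.48 in vascular endothelial-like cells. Lifr was at 1.93 in stromal-like and -1.18 in vascular endothelial-like cells. Osmr was at 2.85 in stromal-like, -1.04 in mural-like and -1.88 in vascular endothelial-like cells. After thinning, the vascular endothelial-like intervals of Lifr and Osmr and the mural-like interval of Osmr included a ratio of 1. The epithelial-like Il6 level lies under the share that mural markers in those cells would give, and the vascular endothelial-like values moved with mural and epithelial markers, whose part was not tested.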

How the results depend on the processing

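Of 28 gene and class pairs of the family in the 4 classes with at least 50 cells in each library, 16 were called. Of these, 12 could be measured under every alternative, and 10 of the 12 kept their call in all of them. The other 4 fell under the minimum of 20 UMIs in some: Osm in epithelial-like cells in 5 alternatives, and Il11 and Lif in mural-like and Il6ra in stromal-like cells in 1 each, the thinning. They kept their call where they could be measured. All 16 kept their direction in the alternatives that measured them, but thinned counts of 3 and 0 UMIs for mural Lif and 2 and 0 for epithelial Osm show no difference. The restriction to shared epithelial clusters and the addition of the unnamed cluster to the epithelium were chosen after seeing the data. The exceptions were Il6 in epithelial-like cells, lost with each cell weighted alike and within shared clusters, and Osmr in mural-like cells, lost with each cell weighted alike, after thinning and with median ratio scaling. Socs3 in stromal-like cells became called lower without doublet removal, after thinning and with a total that leaves out mitochondrial and top genes, which made 1 family gene lower there. In epithelial-like cells 1 family gene was higher under stricter cell filters, thinning, resolution 2, 15 components or shared clusters, and 1 was lower with each cell weighted alike. In mural-like cells 1 was lower in the 3 settings that lost Osmr, and 0 were higher after thinning. In Schwann-like cells 2 were lower without doublet removal. Of the 24 named list pairs, 20 were called, 20 kept their direction and 17 their call. List genes higher in epithelial-like cells numbered 11 after thinning and 4 in shared clusters.

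With a minimum of 100 UMIs, genes higher and lower over all genes numbered 783 and 539 in stromal-like cells, 176 and 134 in mural-like cells and 75 and 49 in Schwann-like cells, and 1285 were higher in epithelial-like cells. With no minimum 356 were lower in Schwann-like cells. Without thinning Il6st and Osmr were found together in 68.7% of injured and 5.66% of uninjured stromal-like cells. Median ratio scaling shifted every log2 ratio by 0.16 in mural-like and 0.18 in Schwann-like cells, and the trimmed total shifted those of stromal-like cells by -0.11. No paired analysis was possible because each group is 1 library. With 1 mouse per group, the injury and the mouse or library cannot be told apart, and depth limits values resting on the 43 uninjured vascular endothelial-like and 15 macrophage or monocyte-like cells.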
